A study of Zea mays with 6 samples.

Results

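The ethylene response factors (ERF, also called EREBP) and the DREB factors are plant transcription factors that share the AP2 DNA-binding domain. ERF proteins are known for binding the GCC box of genes that answer to ethylene and wounding, and DREB proteins for binding the dehydration-responsive element (DRE) in the promoters of dehydrin and other stress genes. Both kinds include activators and repressors, and several are themselves switched on at the transcript level by drought, cold or ethylene.

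The group described here holds 12 of the 17621 non-control probe sets of the Affymetrix maize array. They are the probe sets whose single platform gene symbol, NCBI synonym or published gene title names an AP2 domain, an ERF or EREBP, a DRE binding factor or a DREB. The platform symbol or a synonym named 5 of them, a title named 9, and 7 were named by a title alone. The titles come from a table of probe sets that the study had picked for their fold changes on these same arrays, so the direction and size of those 7 are not independent evidence of anything about the family. Other ERF and DREB genes of maize may be on the array under names not matched here.

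Leaf RNA of field-grown maize was hybridized to 6 arrays, 1 for each of 2 varieties in each of 3 conditions. DKC6575 is a genetically modified hybrid carrying the MON810 event, a CryIAb insect-resistance transgene under the constitutive cauliflower mosaic virus 35S promoter, and Tietar is the near-isogenic variety without it. T1 control leaves were taken at the vegetative eight-leaf stage (V8) from fully irrigated plots, T2 control leaves at silking (R1) from plots kept at 100% of field capacity, and T2 drought leaves at silking from plots that had received 0% since the six-leaf stage. All plots were fully irrigated up to that stage. The methods give 3 biological replicates in the field but not how they entered the arrays, so each group is 1 array and the spread between plots is not measured.

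The values deposited by the authors are hybridization signals on a linear scale. The median signal was between 118 and 141 on the 6 arrays, and 39.6% to 41.6% of the probe sets on an array had a signal under 64. Probe sets whose log2 signal averaged 6 or more, equal to a signal of 64, are called brighter below, since the dimmer ones vary widely between arrays. The brighter probe sets number 10383 in all and 6 in the family, of which EREBP-4 like protein lies nearest to the limit with a mean log2 signal of 7.03. The other 6 members are dimmer, and ERF-like protein just misses the limit with a mean of 5.95. Leaf was represented by 18 probe sets for photosynthesis markers, whose median signal was between 8822 and 16242 on the 6 arrays, with 1 to 3 of them under 64 on any array. Only chlorophyll a-b binding protein 2 among them passed the drought test described below. Its signals in DKC6575 and Tietar were 15988 and 8584 at T1, 1169 and 408 in the T2 controls, and 175 and 107 under drought.

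Among the brighter members, a pair of ERF genes passed both the drought test and the T1 to T2 test described below. The probe set for ethylene-responsive transcription factor 4 (ERF4, Zm.12317.1.S1_at) had a signal of 1222 in Tietar and 844 in DKC6575 at T1, of 277 and 253 in the T2 controls, and of 2376 and 762 at T2 under drought. In each variety the irrigated T2 array was the lowest of the 3, and under drought the Tietar array stood above all the others. ERF4 proteins of Arabidopsis are known as repressors that carry an EAR motif. The log2 difference between T2 drought and T2 control was 3.10 in Tietar and 1.59 in DKC6575, the 11th and the 16th highest of the 10383 brighter probe sets. From T1 to T2 under irrigation it was −2.14 in Tietar and −1.74 in DKC6575, the 25th and the 29th lowest.

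Ethylene-responsive element binding protein 2 (EREBP2, Zm.19276.1.A1_at), named like the tobacco GCC box binding proteins, showed the same order of conditions with a smaller range. Its signal was 1277 in Tietar and 864 in DKC6575 at T1, 450 and 319 in the T2 controls, and 1262 and 611 under drought. The irrigated T2 arrays were again the lowest in both varieties, and the Tietar arrays at T1 and under drought lay close together. The drought difference on the log2 scale was 1.49 in Tietar and 0.94 in DKC6575, and the T1 to T2 difference was −1.50 and −1.44.

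**Figure D1:**
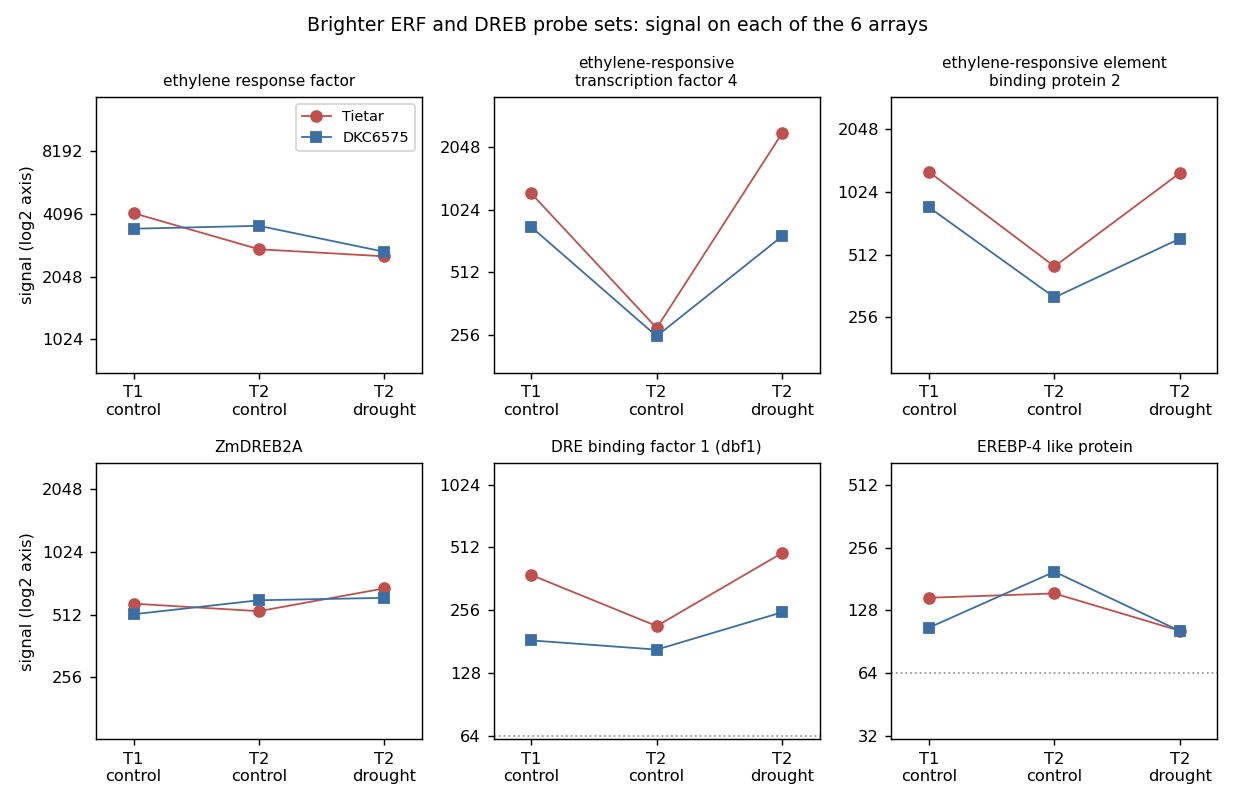
Signal of the 6 brighter ERF and DREB probe sets on each array, 1 panel per probe set, with the condition on the horizontal axis and the signal on a log2 vertical axis that spans the same fold range in each panel. Circles are Tietar and squares DKC6575, each point is 1 array, and the dotted line marks a signal of 64; ERF4 and EREBP2 were lowest on the irrigated T2 arrays of both varieties, while ZmDREB2A stayed between 514 and 684 on all 6.

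The DRE binding factor dbf1 (Zm.10842.1.S1_a_at, NCBI Gene 542569, locus GRMZM2G061487) is known in maize as an activator of the dehydrin gene rab17. Its signal was 377 in Tietar and 183 in DKC6575 at T1, 215 and 165 in the T2 controls, and 481 and 250 under drought. The drought array was the highest of the 3 and the irrigated T2 array the lowest in each variety, and the Tietar array was higher in each condition. Both drought arrays lay above both irrigated T2 arrays. The drought difference was 1.16 in Tietar and 0.59 in DKC6575 on the log2 scale, the 197th and the 332nd highest of the brighter probe sets. From T1 to T2 the difference was −0.81 in Tietar and −0.15 in DKC6575.

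The other DREB factor with a clear signal, ZmDREB2A (Zm.7368.1.S1_at, NCBI Gene 732788, also dbp1), is known in maize as a drought- and heat-responsive activator whose transcript is alternatively spliced. Whether the probe set tells its splice forms apart was not checked. Its signal was 578 in Tietar and 514 in DKC6575 at T1, 532 and 600 in the T2 controls, and 684 and 616 under drought. The drought arrays lay just above the other 4, and the drought difference was 0.36 in Tietar and 0.04 in DKC6575 on the log2 scale.

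The 2 remaining brighter members did not follow ERF4. The probe set titled ethylene response factor (Zm.6775.1.A1_at) had signals of 4129 in Tietar and 3477 in DKC6575 at T1, 2772 and 3591 in the T2 controls and 2564 and 2696 under drought, so that the drought array was the lowest in each variety. EREBP-4 like protein (Zm.2547.1.A1_at) had signals of 147 and 106 at T1, 154 and 196 in the T2 controls and 102 on both drought arrays. Its drought difference was −0.60 in Tietar and −0.94 in DKC6575 on the log2 scale, the latter the 69th lowest of the brighter probe sets.

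The fit of limma to all 17621 probe sets gave the change that the varieties shared, with variety and condition as terms and a variance prior that follows the brightness. The varieties then stand as the replicates, with 2 residual degrees of freedom, so that a p-value measures the spread between 2 arrays of different varieties and not between plots. Of the 12 members, 2 rose under drought and 0 fell at a Benjamini-Hochberg adjusted p under 0.05, whereas 0.550% of all probe sets rose and 0.482% fell. Both were named by a title alone. By limma, ERF4 rose by 2.35 on the log2 scale (SE 0.30, adjusted p = 0.0197) and EREBP2 by 1.21 (SE 0.14, adjusted p = 0.0179), each higher under drought in 2 of 2 varieties. Neither call held in limma without the brightness trend, where the adjusted p was 0.487 for ERF4 and 0.469 for EREBP2 and 0 of all probe sets passed, with 1602 at an unadjusted p under 0.05. Without the variety term the adjusted p was 0.0617 and 0.166.

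The change of dbf1 under drought was 0.88 on the log2 scale (SE 0.18), which did not pass in limma (adjusted p = 0.0833). With 1 array left out the change of dbf1 lay between 0.57, without the T2 control of Tietar, and 1.19, without that of DKC6575. The change of ZmDREB2A was 0.20 (SE 0.12, limma adjusted p = 0.540), that of ethylene response factor −0.26 (SE 0.14, adjusted p = 0.494) and that of EREBP-4 like protein −0.77 (SE 0.23, adjusted p = 0.214). The actin probe sets, whose ratio of 3-prime to 5-prime signal reports on RNA integrity, had a log2 ratio of 4.28 and 4.25 on the drought arrays of DKC6575 and Tietar against 4.57 and 4.67 on their T2 controls, and the part of this in the drought differences was not tested.

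From T1 to T2 under full irrigation, 0 of the 12 members rose and 4 fell, against 6.23% of all probe sets that rose and 3.37% that fell. All 4 were named by a title alone. By limma, ERF4 fell by 1.94 on the log2 scale (SE 0.30, adjusted p = 0.00822) and EREBP2 by 1.47 (SE 0.14, adjusted p = 0.00218). The dimmer ERF-like protein (Zm.10181.1.A1_at) fell by 1.64 (SE 0.30, adjusted p = 0.0156), and the dimmer dehydration-responsive element-binding protein 1D (DREB1D, Zm.1524.1.A1_at), named like an Arabidopsis factor that is induced by drought, fell by 2.84 (SE 0.65, adjusted p = 0.0341). Each was lower at T2 in 2 of 2 varieties. Signals under 64 raised to 64 gave a change of −0.79 for ERF-like protein and −0.09 for DREB1D, and 0 of all probe sets passed then. With either T1 array left out only EREBP2 passed, with the T2 control of Tietar left out 2 members did, and without the trend 0 of all probe sets did, with 2987 at an unadjusted p under 0.05. Centring the arrays on their medians lowered all T1 to T2 differences by 0.13 on average and turned the split over all probe sets from 1098 risen and 593 fallen to 776 and 1126, but the count of members stayed at 4.

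**Figure D2:**
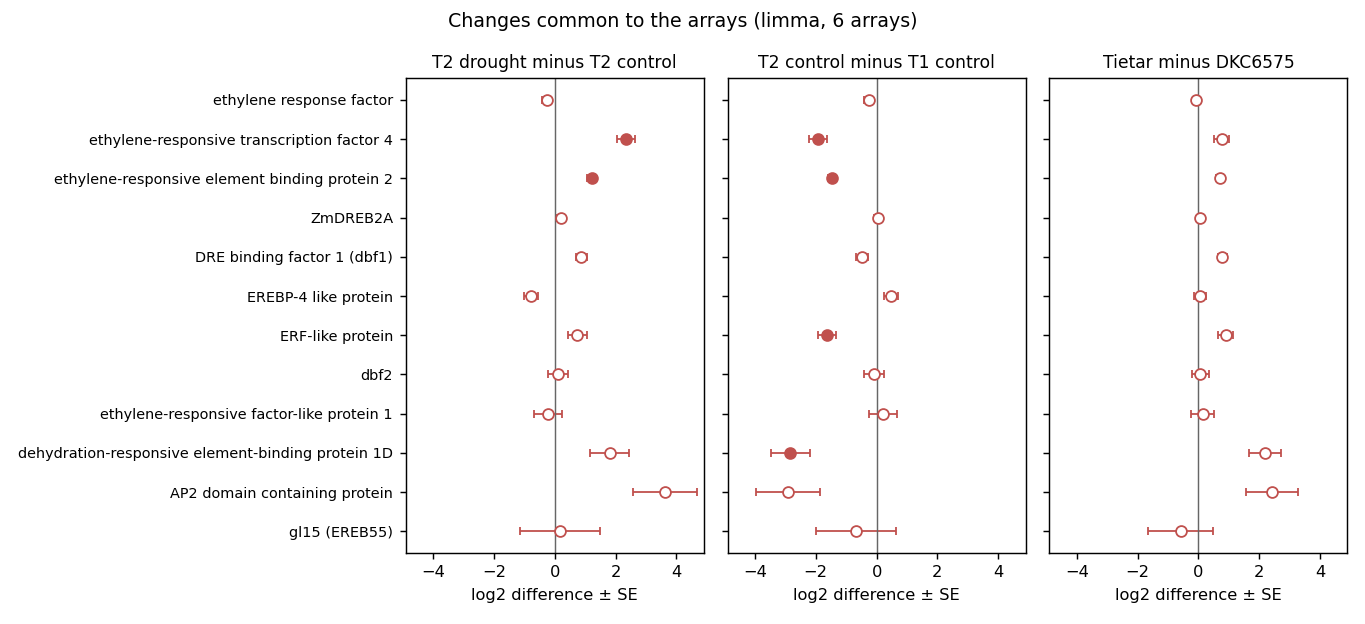
Changes common to the arrays for the 12 members, from limma on 6 arrays, with the log2 difference on the horizontal axis and a row for each probe set from the brightest to the dimmest mean signal. The panels show T2 drought minus T2 control, T2 control minus T1 control and Tietar minus DKC6575, bars are 1 standard error, and filled points passed an adjusted p of 0.05: 2 under drought, 4 from T1 to T2 and 0 between the varieties.

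The irrigated T2 arrays enter both comparisons above, so the drought rise and the T1 to T2 fall of a probe set share them. In 6 of the 12 members the T2 control was the lowest of the 3 arrays in both varieties, and 11.4% of all probe sets and 12.3% of the brighter ones had this order. They are ERF4, EREBP2, dbf1, ERF-like protein, DREB1D and the probe set titled AP2 domain containing protein. All of these but dbf1 were named by a title alone, so the count of 6 is not independent of these arrays. ERF4, EREBP2 and dbf1 are the brighter ones. Set directly against the T1 controls, the drought arrays differed for ERF4 by 0.41 on the log2 scale (SE 0.30, limma adjusted p = 0.436), for EREBP2 by −0.26 (SE 0.14, adjusted p = 0.295) and for dbf1 by 0.40 (SE 0.18, adjusted p = 0.202). In this comparison 0 members rose and 1 fell, while 9.95% of all probe sets rose and 6.04% fell. The member is ethylene response factor, which fell by 0.53 (SE 0.14, limma adjusted p = 0.0441), a call that was lost under cyclic loess scaling (adjusted p = 0.115). Centring on the medians called 3 members lower.

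The transcript level of the leaf as a whole was measured, so less RNA per cell and fewer cells of a type cannot be told apart. Between T1 and T2, 14 of 18 pollen marker probe sets rose and 0 fell. Their median signal was 16.2 and 22.1 on the T1 arrays of DKC6575 and Tietar, 212 and 103 on the T2 controls and 249 and 138 under drought. Their summed signal ran from 14436 to 15378 at T1, from 16886 to 18855 in the T2 controls and from 15819 to 18058 under drought, and 13 of the 18 were under 64 at T1 on both arrays, though none was at 0. Most of the sum came from the profilins PRO4 and PRO5, at 6409 and 7817 on the T1 array of DKC6575. Neither passed from T1 to T2 (limma adjusted p = 0.137 and 0.846), so the sum hides the rises. Exopolygalacturonase1, for one, went from 2.51 to 1139 in DKC6575 and from 7.06 to 576 in Tietar. The part of pollen on the leaves in the T1 to T2 differences was not tested.

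Counted within each variety at 2-fold, with 1 array on either side and therefore no test, 6 members were higher and 0 lower under drought in Tietar, against 8.20% and 11.1% of all probe sets. In DKC6575 the counts were 3 and 0, against 8.04% and 5.94%. Much of this came from dimmer probe sets. Among the 6 brighter members it was 3 in Tietar (ERF4, EREBP2 and dbf1), where 2.62% of the brighter probe sets were that much higher, and 1 in DKC6575 (ERF4), where 0.674% were. From T1 to T2, 5 members were at least 2-fold lower and 0 higher in Tietar, against 8.38% and 11.4% of all probe sets, and 5 and 0 in DKC6575, against 9.20% and 8.47%. Of the brighter members, ERF4 and EREBP2 alone were that much lower, in both varieties. Members named by a title alone came from a table picked for fold changes on these arrays, so these counts do not measure an excess. With members named by the platform alone, the drought counts were 1 in Tietar and 0 in DKC6575. The T1 to T2 counts were then 0 and 1, the latter being EREB55 (Zm.393.1.S1_at), with signals of 2.94 at T1 and 1.30 in the T2 control of DKC6575. The median drought difference of the 6 brighter members was 0.76 in Tietar and 0.32 in DKC6575 on the log2 scale, beside 0.04 and 0.02 over all brighter probe sets. Their median T1 to T2 difference was −0.69 in Tietar and −0.05 in DKC6575, beside 0.04 and 0.06. Of these 6, ERF4, EREBP2, ethylene response factor and EREBP-4 like protein were named by a title alone, so the medians do not measure an excess either.

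**Figure D3:**
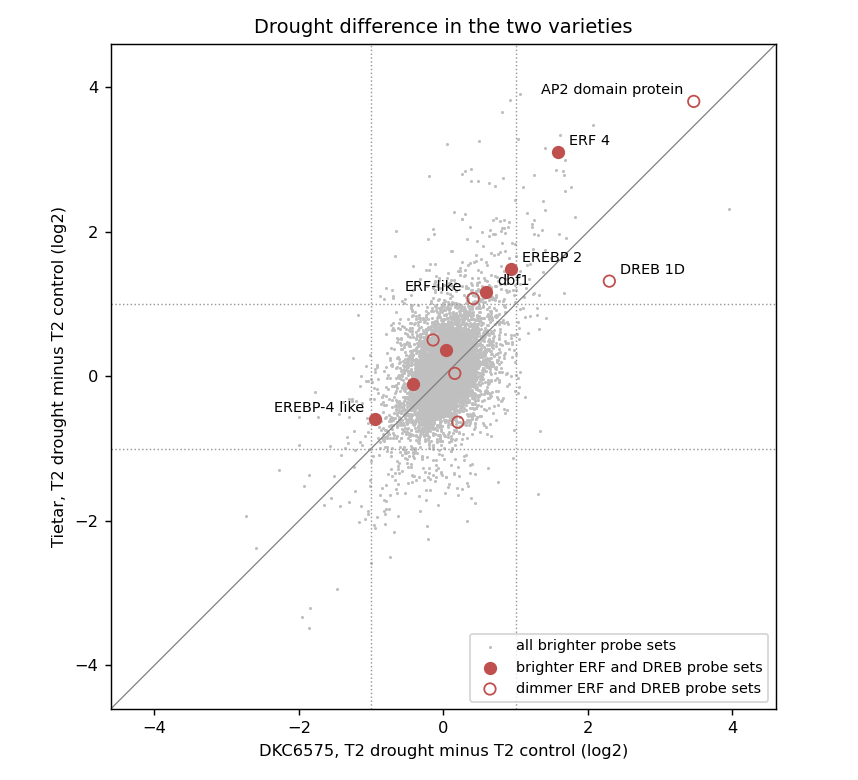
Drought difference (T2 drought minus T2 control, log2) in DKC6575 on the horizontal and in Tietar on the vertical axis for the 10383 brighter probe sets (grey points) and the 12 ERF and DREB probe sets (filled red when brighter, open when dimmer). Dotted lines mark a 2-fold difference and the diagonal an equal one; ERF4, EREBP2 and dbf1 lie above the diagonal, and DREB1D lies below it.

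The drought difference was numerically larger in Tietar than in DKC6575 for ERF4, EREBP2 and dbf1. The gap was 1.51 on the log2 scale for ERF4, and 0.809% of the brighter probe sets had a gap at least as large in either direction. For EREBP2 it was 0.55 and for dbf1 0.57, sizes reached by 14.1% and 13.2% of them. The other brighter members had gaps of 0.30 to 0.35. For DREB1D the gap was −0.98, in the other direction, as it was for the dimmer dbf2 (−0.12) and Zm.11441.1.S1_at (−0.83). The DREB1D gap rests on T2 signals of 10.2 and 25.4 in Tietar and 1.78 and 8.73 in DKC6575, irrigated and droughted. Measured from the mean of both T2 controls, its drought difference was 2.58 in Tietar and 1.04 in DKC6575, the reverse order. With 1 array per variety and condition, a difference between the varieties' responses cannot be tested.

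The varieties were also compared for level. The same 6 members whose low point was the T2 control were higher in Tietar than in DKC6575 in all 3 conditions, an order seen in 15.5% of all probe sets and 13.5% of the brighter ones, and 0 members were lower in Tietar throughout. Of the 6 brighter members, 3 had this order. All but dbf1 of those with this order were named by a title alone, so their count is not independent of these arrays. For dbf1 the Tietar signal was 2.06 times that of DKC6575 at T1, 1.30 times at T2 under irrigation and 1.92 times under drought. For EREBP2 the ratios were 1.48, 1.41 and 2.06, and for ERF4 1.45, 1.09 and 3.12. By limma 0 of the 12 members differed between the varieties at an adjusted p under 0.05, and 0.0511% of all probe sets did. At an unadjusted p under 0.05, the same 6 members were higher in Tietar, as were 3.65% of all probe sets, with the same limit. The common difference was 0.79 for dbf1 (SE 0.15, adjusted p = 0.348) and 0.70 for EREBP2 (SE 0.12, adjusted p = 0.257). With 1 array left out, the common difference lay between 0.66 and 0.99 for dbf1 and between 0.53 and 0.80 for EREBP2.

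The dimmer members had most of their signals under 64. ERF-like protein had 149 in Tietar and 82.1 in DKC6575 at T1, 43.5 and 29.1 in the T2 controls and 91.8 and 38.8 under drought, with 3 of 6 arrays under 64. DREB1D had 72.4 and 12.8, then 10.2 and 1.78, then 25.4 and 8.73, and AP2 domain containing protein 81.9 and 2.70, then 2.82 and 1.41, then 39.4 and 15.6. Both had 5 arrays under 64, and the latter's drought differences of 3.81 and 3.47 on the log2 scale, the widest of the family, did not pass in limma (3.64, SE 1.05, adjusted p = 0.195).

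The other 3 stayed low throughout. For dbf2 (Zm.9418.1.S1_at, NCBI Gene 541957), known in maize as a repressor of rab17, signals lay between 46.2 and 69.3. Ethylene-responsive factor-like protein 1 (Zm.11441.1.S1_at, NCBI Gene 542184, also ERF1) had 26.8 in Tietar and 26.1 in DKC6575 at T1, 37.8 and 24.7 in the T2 controls and 24.4 and 28.4 under drought, under 64 on all 6 arrays. Its drought difference was −0.63 in Tietar and 0.20 in DKC6575, with no common change (−0.22, SE 0.45, limma adjusted p = 0.899). The probe set for EREB55, the glossy15 (gl15) gene that maintains juvenile leaf identity in maize, had signals from 0.94 to 2.94, so no level could be read for it.

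**Figure D4:**
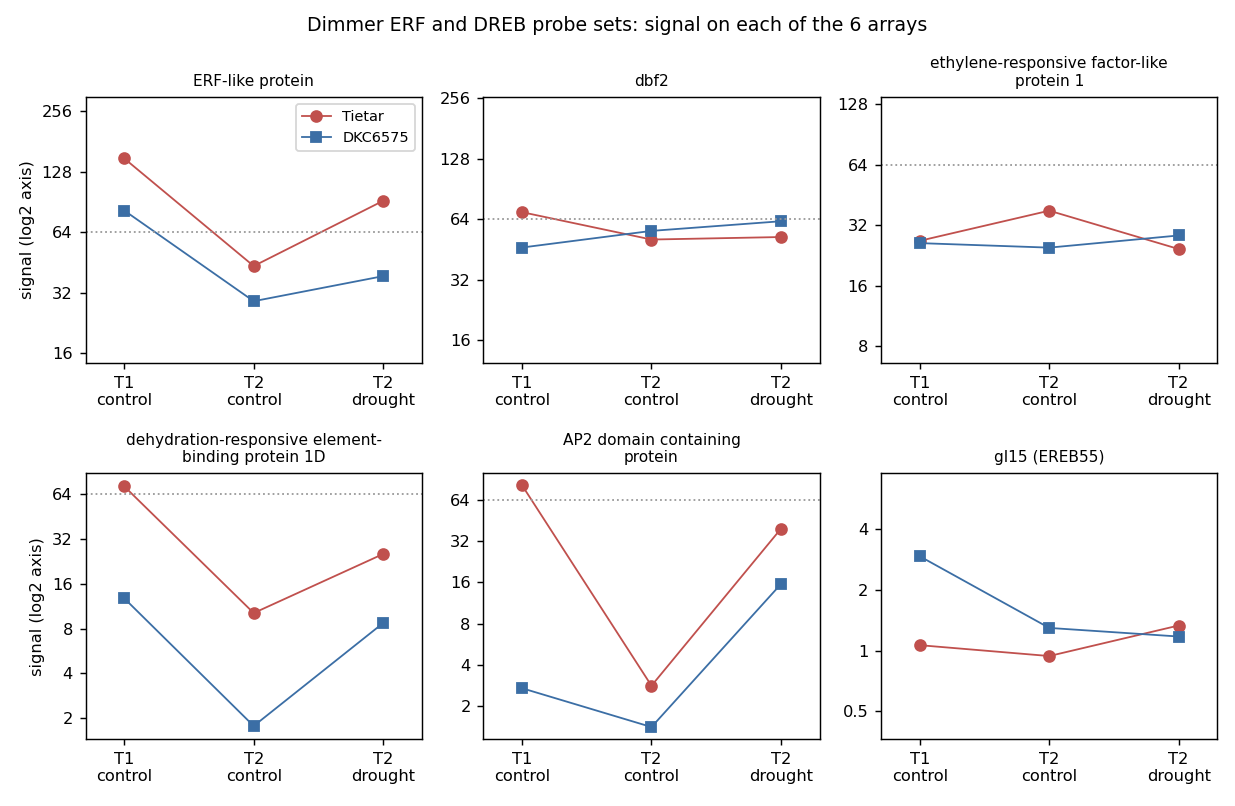
Signal of the 6 dimmer ERF and DREB probe sets on each array, 1 panel per probe set, with the condition on the horizontal and the signal on a log2 vertical axis whose fold range differs between panels. Circles are Tietar and squares DKC6575, each point is 1 array, and the dotted line marks a signal of 64; Zm.11441.1.S1_at stayed under 64 on all 6 arrays, and the T2 control was the low point in both varieties for ERF-like protein, DREB1D and AP2 domain containing protein.

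Upstream of the family, ethylene is made by ACC oxidase and sensed by receptors such as etr2. Under drought none of the 2 ACC oxidase and 2 etr2 probe sets passed in limma. The ACC oxidase probe sets had differences of −0.35 (Zm.18900.1.S1_at, SE 0.12, adjusted p = 0.267) and 0.39 (Zm.8714.1.A1_at, SE 0.24, adjusted p = 0.554) on the log2 scale, and the brighter etr2 probe set by 0.06 (SE 0.20, adjusted p = 0.941). The first of them rose from T1 to T2 by 1.68 on the log2 scale (SE 0.12, limma adjusted p = 0.000671), with signals of 192 and 187 at T1 and of 596 and 619 in the T2 controls of Tietar and DKC6575, and stood at 512 and 444 under drought. For the second ACC oxidase probe set (Zm.8714.1.A1_at) the drought difference was −0.21 in Tietar and 0.99 in DKC6575, in opposite directions. Its signals in Tietar and DKC6575 were 784 and 389 in the T2 controls and 679 and 772 under drought. The brighter etr2 probe set (Zm.275.1.S1_a_at) had signals between 87.0 and 145 on the 6 arrays.

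Among the dehydrins and other LEA and cold-regulated genes, which include known DRE-bearing targets, 1 of 10 probe sets rose under drought and 0 fell. It belongs to dehydrin3 (Zm.4870.1.A1_x_at), which rose by 1.65 on the log2 scale (SE 0.28, limma adjusted p = 0.0470), from 35.5 to 149 in Tietar and from 51.7 to 121 in DKC6575. A second dehydrin3 probe set (Zm.4870.2.S1_a_at) did not pass, at 1.52 (SE 0.30, adjusted p = 0.0730). The dehydrin COR410 (Zm.10149.1.A1_at) had signals of 264 and 874 in Tietar and of 363 and 396 in DKC6575, irrigated and droughted, with a common change of 0.93 that did not pass (SE 0.31, adjusted p = 0.259). A late embryogenesis abundant protein (Zm.1882.1.S1_at) had a change of −0.22 (SE 0.16, limma adjusted p = 0.634). The dimmer dehydrin1 probe set (Zm.14392.1.S1_at) had signals of 45.1 and 97.7 in Tietar and of 23.6 and 33.8 in DKC6575, irrigated and droughted. Its common change of 0.82 did not pass (SE 0.51, limma adjusted p = 0.559). From T1 to T2, 1 of the 10 rose and 3 fell, the 3 being the dehydrin3 probe sets.

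The probe sets most like these factors were looked up among the 1299 brighter ones with a name, by Pearson's r of the log2 signals over the 6 arrays, as a description. The most alike for ERF4 were dehydrin3 (Zm.4870.2.S1_a_at, r = 0.992), AN18 (r = 0.982), a ZIM motif family protein (r = 0.975), CONSTANS-like protein CO8 (r = 0.974) and the NAC1 transcription factor (r = 0.970). For EREBP2 they were AN15 (r = 0.995), xyloglucan endotransglucosylase/hydrolase protein 23, a cell wall enzyme (r = 0.986), the EF-hand calcium-binding protein CCD1 (r = 0.985), zinc-finger protein 1 and again CO8 (each r = 0.974). For dbf1 they were SE1A (r = 0.986), polcalcin Jun o 2 (r = 0.972), heat shock 70 kDa protein 4 (r = 0.957), an NPK1-related protein kinase-like protein (r = 0.935) and the probe set named 9-24 (r = 0.927). Within the family r was 0.942 between ERF4 and EREBP2, 0.842 between ERF4 and dbf1 and 0.811 between EREBP2 and dbf1. These values share the same 6 arrays, 1 per variety and condition. An r over 0.9 was reached by 25 of the 1299 for ERF4, by 26 for EREBP2 and by 7 for dbf1. The names used include titles from the table picked for fold changes on these arrays, so the pool is not independent of them.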

How the data were processed

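The labels put each of the 6 leaf RNA arrays in a group of its own, by variety and condition. What the authors deposited is a linear intensity per probe set, with a trimmed mean near 500 on each array. The methods name RMA and the Partek software, which such values do not resemble, and the settings used are not given in the sources used here. They were converted to log2, and 113 control probe sets were left out. The number of arrays limits the precision. The columns of fold changes in the published tables hold the authors' comparisons and were not used.

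The platform annotation gave 1452 probe sets a single symbol, 1377 of which matched the B73 reference gene table by gene ID, and the published table a title for 2000, of which it was held only in part. Common changes were fitted with limma 3.58.1 in R 4.3.3 (terms for variety and condition, a variance prior with an intensity trend, and adjusted p under 0.05 by Benjamini-Hochberg). The same fit was also run on simulated data, whose outcome is not given here. Other values came from Python 3.11.15, pandas 2.3.3, numpy 2.4.6 and matplotlib 3.10.9. Every member is accounted for, and members with a mean log2 of at least 6 that are listed, pass a test or differ at least 2-fold in a variety are given in full. Of the ethylene and dehydrin lists, up to 4 brighter members with the largest drought changes are given. The leaf and pollen lists are mainly summarized. Lists cover ethylene synthesis, ethylene signalling, dehydrins and LEA proteins, leaf markers and pollen markers. The members and the lists were chosen with earlier results of these data known. Alternatives were no trend, the filter on mean signal, cyclic loess, median centring, control probe sets kept, no variety term, each array left out, other fold thresholds, other baselines and members named by the platform alone. A floor at a signal of 64 combined with the filter, and the contrast of T2 drought with T1, were added after the data were seen. No sequence of these genes was used here.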

Additional observations from a re-analysis of the deposited data

Results flagged for a closer look

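In 5 members the arrays of the 2 varieties moved in opposite directions, a difference that was not tested because each variety has 1 array per condition. For ethylene-responsive factor-like protein 1 (Zm.11441.1.S1_at) the drought difference was −0.63 in Tietar and 0.20 in DKC6575 on the log2 scale, and its T1 to T2 difference was 0.50 and −0.07. For gl15 (Zm.393.1.S1_at) the drought difference was 0.50 and −0.14, and for dbf2 (Zm.9418.1.S1_at) the T1 to T2 difference was −0.45 and 0.27; all arrays but 1 of these 3 probe sets had a signal under 64. Among the brighter members, the T1 to T2 difference of ethylene response factor (Zm.6775.1.A1_at) was −0.58 in Tietar and 0.05 in DKC6575, and that of ZmDREB2A (Zm.7368.1.S1_at) −0.12 and 0.22.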

How the results depend on the processing

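The count of members called under drought, 2, became 0 without the trend, with the filter and no trend, with the floor at 64, without the variety term and with members named by the platform alone, and was 2 to 3 with 1 array left out. The count from T1 to T2, 4, became 0 without the trend, with the floor and by platform names alone, 2 with the filter (with or without trend, or with the floor) and without the variety term, and 1 to 5 with 1 array left out. The count between varieties, 0, was 0 to 2 with 1 array left out. Without the trend and with the floor, limma called 0 of all probe sets under drought (1602 and 1611 at an unadjusted p under 0.05). At 2-fold, the drought count in Tietar went from 6 to 2 at 3-fold, 3 with the filter or the floor and 1 by platform names, and that in DKC6575 from 3 to 6 at 1.5-fold, 1 with the filter or the floor and 0 by platform names. From T1 to T2 it went in Tietar from 5 to 2 with the filter, 3 with the floor and 0 by platform names, and in DKC6575 from 5 to 2 at 3-fold, with the filter or with the floor and 1 by platform names. The median drought difference of the brighter members became 1.16 (Tietar) and 0.59 (DKC6575) at a mean log2 of at least 8, and the median T1 to T2 difference became −0.37 in both against the mean of both control arrays. The T1 to T2 change of ZmDREB2A, 0.05, reversed to −0.026 under cyclic loess and −0.077 under median centring, and lay between −0.12 and 0.22 with 1 array left out; the cause was not tested. Of 204 alternative values of 14 single-member changes, 169 kept direction and side of the threshold. Finding members by gene description was not run, as the reference gene table has no such column. The fit pairs the arrays by variety, and without that term both drought calls were lost; no pairing by replicate number was possible because the labels carry none.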
